A study of Mus musculus with 8 samples.

Results

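Cholesterol synthesis and its control by SREBP2 were examined through 8 genes, Hmgcs1, Sqle, Idi1, Fdps, Lss, Dhcr7, Insig1 and Srebf2, in the kidneys of NEKO mice and their littermate controls. The genes were chosen by name, as a set of synthesis enzymes with the factor SREBP2 and its brake Insig1, and all 8 were among the 13570 named genes tested. They are read by 14 of the 41174 probes of the array. None of the 8 genes was called higher or lower in NEKO kidneys, where 0.097% of all features tested were called higher and 0.128% lower. The NEKO and control mice overlapped in each of the 8. Over all features, every NEKO mouse lay above every control in 3.88% and below every control in 5.39%.

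NEKO mice are Keap1-/-::Nrf2Flox/Flox::K5-Cre animals. They lack Keap1, the adaptor through which the transcription factor Nrf2 is normally degraded, in the whole body. They lose Nrf2 where K5-Cre acts, in squamous epithelium. In younger mice, the study found the induction of the Nrf2 target Nqo1 unreduced in NEKO kidneys. Whether Nrf2 was lost in any cells of the kidneys used here was not examined. Of the 4 controls, 3 were Keap1+/-::Nrf2Flox/Flox::K5-Cre (K1Cre, replicates 4, 7 and 8) and 1 was Keap1+/-::Nrf2Flox/Flox without the Cre (K1, replicate 1). Every mouse thus carried the Nrf2Flox/Flox alleles, every control was heterozygous for Keap1, and all were on a mixed 129Sv/J and C57BL/6J background and 8 weeks old. Total RNA of the whole kidney of each mouse was hybridised to 1 array. Females were control replicates 1 and 8 and NEKO replicates 2 and 3, and males were control replicates 4 and 7 and NEKO replicates 5 and 6. The females shared 1 slide and the males another, and an effect of sex cannot be told apart from one of the slide.

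Cells make cholesterol from acetyl-CoA through the mevalonate pathway. SREBP2 (Srebf2) is a membrane-bound transcription factor of the endoplasmic reticulum. When sterols are scarce, the escort protein SCAP carries it to the Golgi, where proteases release the part that enters the nucleus and switches on the genes of the pathway. When sterols are plentiful, INSIG proteins hold SCAP back. The genes of the pathway are therefore commonly read as a group, and in the kidney cholesterol also reaches cells from lipoproteins and from proteins taken up by the proximal tubule.

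The binding letters of this system were looked for in the promoters that RefSeq lists on GRCm38.p6, taken as 250 bases before to 50 after a transcript start. The sterol response element-like letters TCACNCCAC, searched on both strands, occurred among the genes examined in the Hmgcs1 promoter, as TCACCCCAC with its first base at -137 from the start, and in 1.24% of all 32851 promoters. The looser letters CACNCNAC, which overlap the first motif, occurred at 2 places in Hmgcs1 and 1 in Insig1, against 12.1% of all promoters with a match. CCAAT, the letters bound by NF-Y, occurred at 4 places in Hmgcs1, 2 in Idi1, 1 each in Lss, Insig1 and Srebf2, and 2 at the third of the 3 starts listed for Dhcr7, and in 37.4% of all promoters. The antioxidant response element-like letters TGACNNNGC, those of the kind Nrf2 binds, occurred at that same Dhcr7 start alone among these promoters, and in 12.4% of all promoters. The table held no promoter of Sqle or Fdps. The Hmgcs1 stretch is shown because it holds both kinds of letters within 100 bases, at chr13:119690168-119690267 on the plus strand of GRCm38.p6, with the TCACNCCAC match and ATTGG, which is CCAAT read on the other strand, in capitals.
Hmgcs1: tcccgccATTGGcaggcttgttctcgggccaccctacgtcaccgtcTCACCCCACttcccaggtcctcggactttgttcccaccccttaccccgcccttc

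Levels are given as log2 of the array signal minus the 75th percentile of that array, so a level of 0 is the signal of the 75th-percentile probe and a step of 1 is 2-fold. Levels of different genes come from different probes and are not set against each other. Differences are NEKO minus control, fitted with limma with sex as a term, and adjusted p-values run over the 19593 named genes and unnamed transcripts tested. Calls were made where that adjusted p was under 0.05. With 4 mice against 4, the exact permutation test of a single gene cannot give a p below 0.0286. A gene whose groups do not overlap gets that value, so it adds nothing to the lack of overlap.

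The arrays were alike in signal, with 61.8% to 65.7% of probes well above background and 73 to 172 of 43379 spots left out as outliers. Keap1 itself lay between 0.06 and 0.45 in NEKO and between 1.77 and 1.92 in control kidneys, a difference of -1.63 ± 0.10 (SE, adjusted p = 0.00458), so the libraries went with their labels. Where the probe lies relative to the deleted part of Keap1 was not determined. Nqo1, a target gene of Nrf2, differed by 2.62 ± 0.43 (SE, adjusted p = 0.0651), without overlap. Of the other Nrf2 targets tested, Txnrd1 was called higher, at 1.30 ± 0.17 (SE, adjusted p = 0.0486). Srxn1 differed by 1.47, without overlap, and Gclc and Gclm by 0.95 and 0.57, with overlap. Hmox1 differed by -0.08. Of the kidney markers, the 8 of the proximal tubule had a summed level of 9.17 to 9.37 in NEKO and 9.01 to 9.36 in control kidneys. Lrp2, with the highest mean of these 8, weighs most in this sum. Among the 8, 5 differences lay above 0 and 3 below. The groups lay apart upwards in Slc22a8 (0.82) and downwards in Slc5a2 (-0.43), and none of the 8 was called. The summed level of 5 intercalated cell markers was 1.99 to 4.18 in NEKO and 4.88 to 5.28 in control kidneys. Slc26a4, the brightest of the 5 in the controls, weighs most in this sum, and in it alone the groups lay apart. All 5 differences lay below 0, from -2.07 for Slc26a4 to -0.09 for Foxi1, and none was called. So did all 5 of thick ascending limb markers and 5 of 6 of principal cell markers, none of them called. Over all 19593 features, 11010 differences lay below 0. In whole-kidney RNA, fewer cells of a type and less RNA per cell cannot be told apart. Control replicate 4 had 123 of the 19593 features more than 1 log2 unit above all other arrays, against 18 to 66 for the others, and NEKO replicate 3 had 117 features more than 1 below all others, against 13 to 68.

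Hmgcs1 encodes the cytosolic HMG-CoA synthase, an early enzyme of the mevalonate pathway. Its level was 4.85, 6.14, 4.57 and 4.53 in control replicates 1, 4, 7 and 8 and 5.51, 5.26, 5.70 and 4.54 in NEKO replicates 2, 3, 5 and 6. The highest value belonged to a control male and the lowest to a control female, so the NEKO mice lay wholly inside the control range. The fitted difference was 0.23 ± 0.42 (SE, 95% interval -0.75 to 1.22, adjusted p = 0.79, exact permutation p = 0.629, two-sided). Control replicate 4 carried much of the control mean, and without it the difference was 0.64 (adjusted p = 0.381), while without control replicate 7 it was 0.01. The second probe of the gene put the same control male highest, at -1.43, and gave a difference of 0.10 ± 0.30 (SE).

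**Figure D1:**
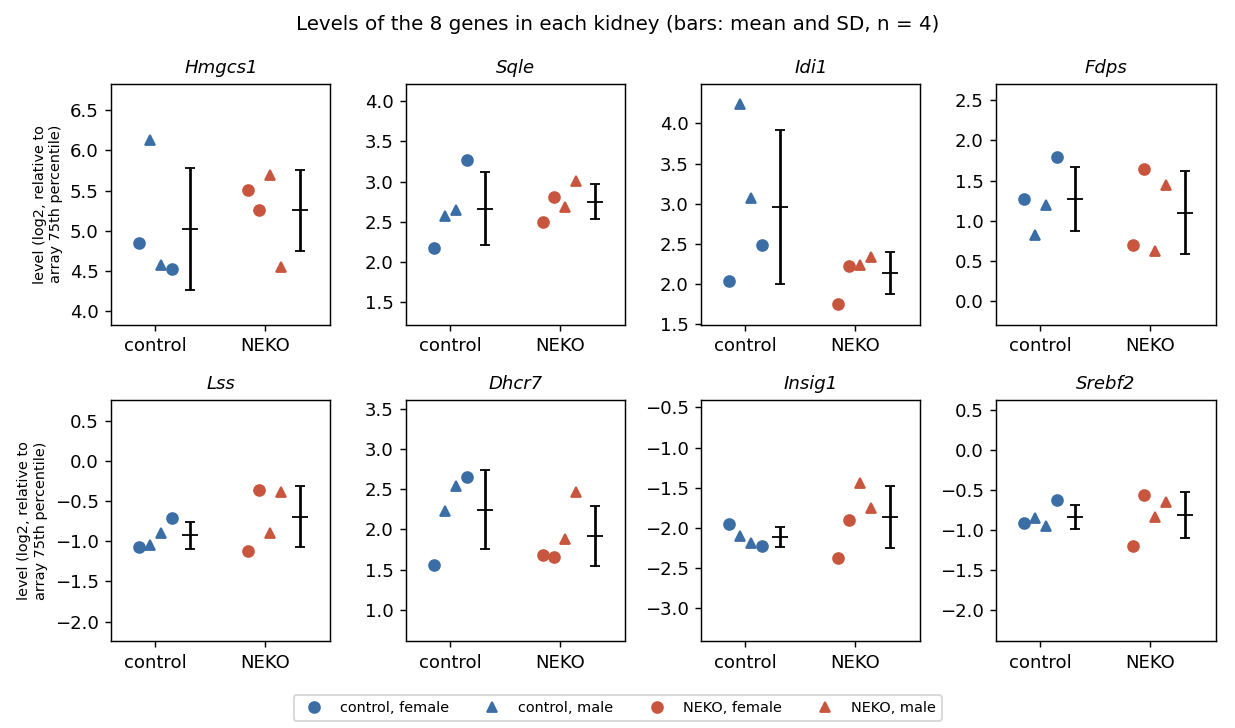
Level of each of the 8 genes in each kidney (log2, scaled to the 75th percentile per array, every panel spanning 3 log2 units), with circles for females, triangles for males, and black bars for the group mean and SD of 4 mice. Control and NEKO points overlap in all 8 panels, and the widest spread is that of Idi1 in the controls, from 2.03 to 4.24.

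Idi1 encodes isopentenyl-diphosphate isomerase, which converts between both five-carbon building blocks of sterols and other isoprenoids. It showed the largest fitted difference of the 8 genes. Its level was 2.03, 4.24, 3.07 and 2.49 in control replicates 1, 4, 7 and 8 and 1.75, 2.23, 2.24 and 2.33 in NEKO replicates 2, 3, 5 and 6. The NEKO mice lay close together at 2.14 ± 0.26 (SD, n = 4), whereas the controls spread over 2.96 ± 0.95 (SD, n = 4) with both control males on top. Control replicate 1, the mouse without Cre, lay among the NEKO mice, and 1 NEKO mouse lay below all controls.

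The fitted difference of Idi1 was -0.82 ± 0.33 (SE), or 0.566-fold with a 95% interval of 0.329 to 0.975. Its unadjusted p was 0.0425 and its adjusted p 0.263, and 10.6% of all features were lower in NEKO with an unadjusted p under 0.05. The exact permutation p was 0.171 (two-sided). The difference was -1.37 between the males and -0.27 between the females, and the term for sex by genotype was -1.10 ± 0.55 (SE, adjusted p = 0.572). Without control replicate 4, the array with the most features far above the others, the difference was -0.48 (adjusted p = 0.354). The second probe of Idi1 gave -0.73 ± 0.37 (SE), again with control replicate 4 highest, at -0.76, and the other 7 kidneys between -2.96 and -2.15.

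Fdps encodes farnesyl diphosphate synthase, which joins the building blocks into the last intermediate that sterols share with ubiquinone and prenylated proteins. Its level was 1.27, 0.82, 1.20 and 1.79 in control replicates 1, 4, 7 and 8 and 0.70, 1.64, 0.62 and 1.44 in NEKO replicates 2, 3, 5 and 6. NEKO replicates 2 and 5 lay below all controls, and the other NEKO mice lay between the highest controls. The difference was -0.17 ± 0.28 (SE, 95% interval -0.84 to 0.49, adjusted p = 0.768, exact permutation p = 0.629). It was -0.37 without NEKO replicate 6 (adjusted p = 0.562) and 0.06 without NEKO replicate 2 (adjusted p = 0.917).

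Sqle encodes squalene epoxidase, the enzyme of the first oxygen-dependent step towards sterols. Its level was 2.17, 2.57, 2.65 and 3.26 in control replicates 1, 4, 7 and 8 and 2.49, 2.81, 2.68 and 3.01 in NEKO replicates 2, 3, 5 and 6. Both the lowest and the highest kidney were control females, and the NEKO mice fell between them. The difference was 0.08 ± 0.24 (SE, 95% interval -0.48 to 0.65, adjusted p = 0.869, exact permutation p = 0.771). Without control replicate 8, the highest kidney, it was 0.33 (adjusted p = 0.276), and without control replicate 1, the lowest, -0.10 (adjusted p = 0.841).

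Lss encodes lanosterol synthase, which folds the epoxide of squalene into the first sterol. Its level was -1.07, -1.04, -0.89 and -0.70 in control replicates 1, 4, 7 and 8 and -1.12, -0.37, -0.89 and -0.38 in NEKO replicates 2, 3, 5 and 6. NEKO replicates 3 and 6, 1 of each sex, lay above every control, and NEKO replicate 2 lay below every control. The difference was 0.23 ± 0.20 (SE, 95% interval -0.24 to 0.71, adjusted p = 0.552, exact permutation p = 0.343). It was 0.40 without NEKO replicate 2 (adjusted p = 0.269) and 0.10 without NEKO replicate 3 (adjusted p = 0.807). The second probe placed the same 2 NEKO mice above and the same 1 below all controls, with a difference of 0.15 ± 0.21 (SE). Lss thus varied more among NEKO than among control mice, with an SD of 0.38 against 0.17, although no test of the spread was made.

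Dhcr7 encodes the reductase that makes cholesterol from 7-dehydrocholesterol, the last step of one branch of the pathway. Its level was 1.56, 2.23, 2.53 and 2.66 in control replicates 1, 4, 7 and 8 and 1.68, 1.65, 1.88 and 2.47 in NEKO replicates 2, 3, 5 and 6. The lowest kidney was the control without Cre, and the other 3 controls lay above 3 of the 4 NEKO mice. The difference was -0.33 ± 0.25 (SE, 95% interval -0.92 to 0.27, adjusted p = 0.513, exact permutation p = 0.371). Against the K1Cre controls only, it was -0.52 (adjusted p = 0.344), and without control replicate 8 it was -0.08 (adjusted p = 0.823). On the second probe, control replicates 7 and 8 and NEKO replicate 6 stood at -0.85, -0.20 and -0.43, while the other 5 kidneys lay between -2.40 and -2.02, so the second probe spread more widely, with controls in both clusters. Its difference was -0.52 ± 0.60 (SE).

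**Figure D2:**
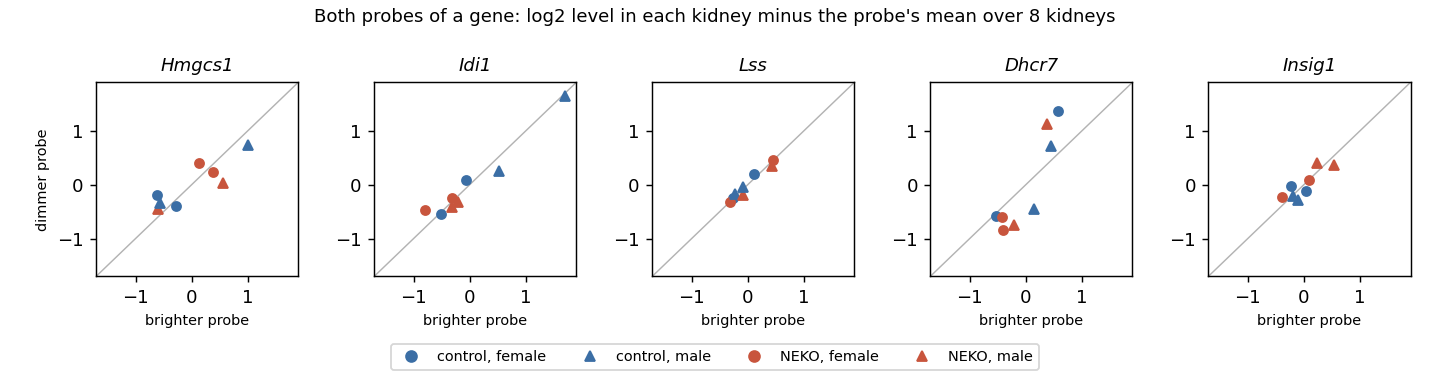
For the 5 genes with a second probe well above background, the log2 level in each kidney on the brighter (x axis) and dimmer (y axis) probe, each minus the probe's own mean over 8 kidneys, and the grey line marks equal deviations. Control replicate 4 is the highest Idi1 kidney on both probes, and the dimmer Dhcr7 probe spreads the kidneys from -2.40 to -0.20 against 1.56 to 2.66 on the brighter one.

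Insig1 encodes the sterol-dependent brake on SCAP and is itself a target of SREBP2. Its level was -1.95, -2.10, -2.19 and -2.23 in control replicates 1, 4, 7 and 8 and -2.37, -1.90, -1.45 and -1.75 in NEKO replicates 2, 3, 5 and 6. Among the NEKO mice, 3 of 4 lay above every control and NEKO replicate 2 lay below every control. The difference was 0.25 ± 0.17 (SE, 95% interval -0.16 to 0.66, adjusted p = 0.473, exact permutation p = 0.257). It was 0.54 between the males and -0.05 between the females, and the term for sex by genotype did not pass (adjusted p = 0.554). NEKO replicate 2 set much of the value, since without it the difference was 0.40 (adjusted p = 0.219), and without NEKO replicate 5 it was 0.13. The second probe again had 3 of 4 NEKO mice above every control and gave a difference of 0.31 ± 0.15 (SE), with 0.63 between the males and -0.004 between the females.

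Srebf2 encodes SREBP2, whose activity is set mostly by processing of the protein, which an array of RNA does not measure. Its level was -0.91, -0.85, -0.95 and -0.63 in control replicates 1, 4, 7 and 8 and -1.20, -0.56, -0.84 and -0.65 in NEKO replicates 2, 3, 5 and 6. The control range lay inside the NEKO range. The difference was 0.02 ± 0.16 (SE), or 1.02-fold with a 95% interval of 0.783 to 1.31 (adjusted p = 0.955, exact permutation p = 0.857). On none of the 8 arrays was the other Srebf2 probe well above background, and it was not tested.

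Among the 8 genes, 0 were called in either direction, against 0.097% of all features called higher and 0.128% called lower by the same limma fit with Benjamini-Hochberg adjustment. Without adjustment, 1 of the 8, Idi1, had a p under 0.05. The fitted difference was above 0 for 5 genes and below 0 for 3, with a median of 0.05 against -0.03 over all features tested. No gene had its NEKO and control mice apart. Among all features, 3.88% had every NEKO mouse above and 5.39% every NEKO mouse below every control. With 8 genes, no excess or shortfall against these shares is read from the counts, and none was tested. The intervals are wide for the genes that varied most between mice. That of Hmgcs1, the widest of the 8, spans 0.593-fold to 2.32-fold, whereas that of Srebf2, the narrowest, spans 0.783-fold to 1.31-fold.

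The mouse-to-mouse pattern was not shared by all 8 genes. NEKO replicate 2 was the lowest kidney for Idi1, Lss, Insig1 and Srebf2, and lay above its gene's mean for Hmgcs1 alone. NEKO replicate 6 and NEKO replicate 3 each lay above the mean for 6 of the 8 genes. Control replicate 8 was the highest kidney for Sqle, Fdps and Dhcr7 and the lowest for Hmgcs1, and control replicate 4 the highest for Hmgcs1 and Idi1. Kidneys of both genotypes thus stood at the top and at the bottom of the set.

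After each gene was centred and divided by its SD over the 8 kidneys, the pair with the most similar pattern was Lss and Srebf2, at a root mean square difference of 0.518, and the pair furthest apart was Hmgcs1 and Fdps, at 1.74. The genes outside the set whose pattern lay nearest to the mean of the 8 were Trmt44 (0.479), Yrdc (0.513), Top2a (0.524), Ptpn23 (0.525) and Rbbp6 (0.525), out of 13511 named genes compared over the 8 arrays. Srebf2 was nearest to that mean among the 8 genes themselves, at 0.529, and Hmgcs1 furthest, at 1.14, although each of the 8 is part of the mean it was set against.

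**Figure D3:**
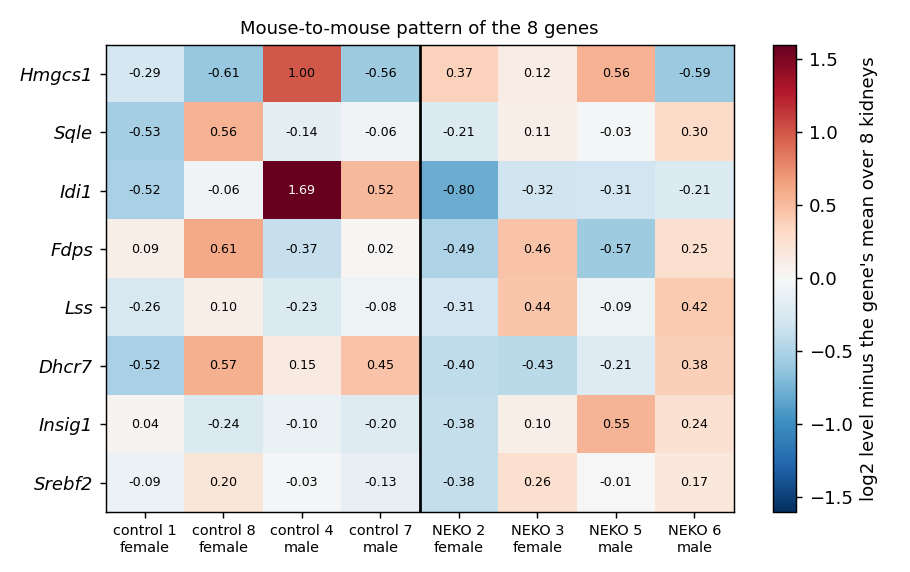
Level of each gene in each kidney minus its mean over the 8 kidneys (log2), controls left and NEKO right of the line, females before males in each group. Control replicate 4 is high in Hmgcs1 and Idi1, NEKO replicate 2 is low in 7 of the 8 genes, and no kidney lies above or below the mean in all 8 genes.

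Within the sexes, each with 2 NEKO and 2 control mice, the differences had the same sign in females and males for Idi1, Lss and Dhcr7 and opposite signs for Hmgcs1, Sqle, Fdps, Insig1 and Srebf2. Hmgcs1 differed by 0.70 between the females and by -0.23 between the males. Sqle, Fdps and Srebf2 differed by -0.07, -0.36 and -0.11 in females and by 0.24, 0.02 and 0.16 in males. The test of the sex by genotype term called 0 of the 8 genes (adjusted p = 0.554 to 0.928) and gave none an unadjusted p under 0.05, against 0.0153% of all features called and 10.5% with an unadjusted p under 0.05.

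**Figure D4:**
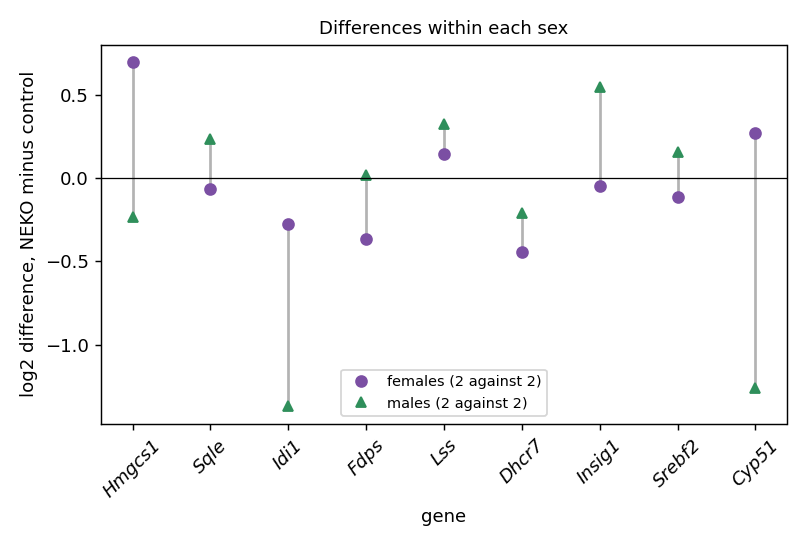
NEKO minus control difference in log2 level among females (circles, 2 mice against 2) and males (triangles, 2 against 2) for the 8 genes and for Cyp51, the enzyme that follows Lss. Idi1 is at -0.27 in females and -1.37 in males and Cyp51 at 0.27 and -1.26, and no sex by genotype term shown passed adjustment.

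The remaining enzymes of the pathway were counted from a list of 16, of which 15 were tested, Idi2 having no named probe. None was called in either direction. Of the 15, 5 had a difference above 0 and 10 below, with a median of -0.05. Of all 19593 features, 8583 lay above 0 and 11010 below. Acat2 and Pmvk, enzymes of early steps, differed in opposite directions. Acat2, which makes the acetoacetyl-CoA that HMG-CoA synthase uses, was at 0.97, 0.66, 0.78 and 0.70 in the controls and 1.11, 1.24, 1.63 and 1.80 in the NEKO mice, with no overlap and a difference of 0.66 ± 0.15 (SE, adjusted p = 0.121, exact permutation p = 0.0286). Pmvk, the phosphomevalonate kinase upstream of Idi1, was at 2.31, 2.15, 2.38 and 2.53 in the controls and 1.95, 2.04, 1.62 and 1.74 in the NEKO mice. Its groups did not overlap on either probe, and the difference was -0.50 ± 0.09 (SE, adjusted p = 0.0794, exact permutation p = 0.0286).

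Cyp51, the lanosterol demethylase that follows Lss, lay at 0.94 and 0.42 in the NEKO males and between 1.69 and 2.29 in the other 6 kidneys. Its overall difference was -0.49 ± 0.33 (SE, adjusted p = 0.458), and its sex by genotype term was -1.53 ± 0.35 (SE, unadjusted p = 0.00433, adjusted p = 0.176). Among the other enzymes of the list, Mvd, which acts between Pmvk and Idi1, differed by -0.09 and Fdft1 by -0.30. Sc5d and Ebp, both upstream of Dhcr7, differed by 0.18 and 0.15, and the groups overlapped in each of these.

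**Figure D5:**
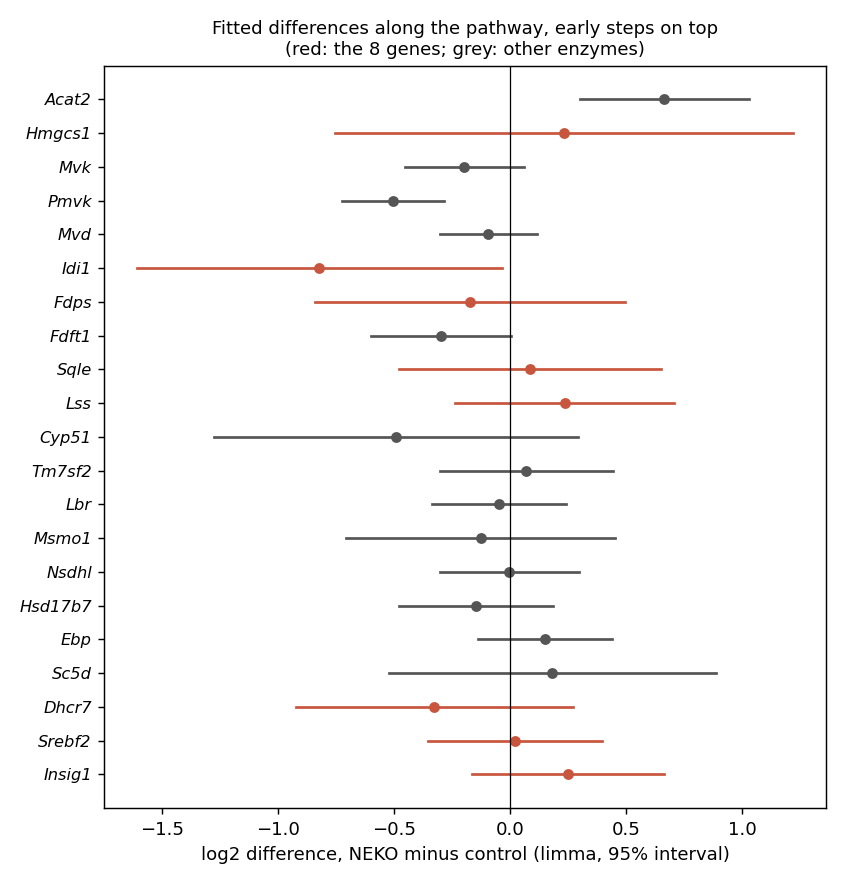
Fitted NEKO minus control difference in log2 level (points) with its 95% limma interval (lines) for synthesis enzymes from early to late steps, then Srebf2 and Insig1, where red marks the 8 genes and grey the other enzymes. Pmvk and Acat2 lie at -0.50 and 0.66, Idi1 at -0.82, and none of the genes shown passed adjustment over all features.

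Genes of sterol sensing and SREBP processing were tested for 7 of 8, Mbtps2 being too dim, and none was called. Srebf1, which encodes SREBP1, was at 3.57 and 3.24 in the NEKO males and between 2.28 and 2.68 in the other 6 kidneys, with a difference of 0.45 ± 0.22 (SE, adjusted p = 0.324). Scap differed by -0.21 and Insig2 by -0.08, and the ubiquitin ligase Rnf139 by 0.15, with the groups apart in Rnf139 alone of these. On the dimmest kept probe of Rnf139 the groups overlapped, with a difference of 0.11.

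Of the genes of cholesterol uptake and transfer, 9 of 10 were tested and none was called. All 9 differences lay above 0, from 0.02 to 0.25, where 8583 of all 19593 features did. None had an unadjusted p under 0.05 in limma, and no group lay apart. Cubn and Scarb1, receptors at the cell surface, differed by 0.14 each. In the isoprenoid branch, which shares the intermediates made by Idi1 and Fdps, 10 of 11 genes were tested and none was called. Of these, 8 had a difference below 0, where 11010 of all 19593 features did. The lowest were Pdss1 (-0.19), Coq2 (-0.13) and Rabggta (-0.12), and the 2 above 0 were Rabggtb (0.03) and Fntb (0.02).

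Among genes of sterol efflux and their regulators, the LXR receptors, 8 of 9 were tested and none was called. The transporter Abcg1 was at -0.99, -1.52, -1.26 and -1.02 in the controls and -0.86, -0.80, -0.46 and -0.54 in the NEKO mice, without overlap (0.53 ± 0.16, SE, adjusted p = 0.177, exact permutation p = 0.0286). Apoe and Abca1 differed by 0.57 and 0.42, and Nr1h2, Nr1h3 and Lpcat3 by -0.16, -0.16 and -0.06, with overlap in each but Nr1h2. Of the genes of sterol storage and breakdown, 9 of 11 were tested and none was called. Hsd3b7 and Cyp39a1, both of bile acid synthesis, had their groups apart (Cyp39a1 on 1 of its 2 probes), at 0.45 ± 0.14 (SE, adjusted p = 0.19) and -0.52 ± 0.12 (SE, adjusted p = 0.114). Ch25h, Soat1 and Cyp46a1 differed by 0.28, 0.19 and -0.31, with overlap.

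Cyp7b1, an oxysterol hydroxylase, was at 5.11 and 4.22 in the control males, 3.41 and 1.72 in the NEKO males, 1.43 and 0.34 in the NEKO females and -0.44 and -0.43 in the control females. The order of the genotypes was thus opposite in the sexes, by -2.10 in males and 1.32 in females, and the sex by genotype term was -3.42 ± 0.89 (SE, unadjusted p = 0.00817, adjusted p = 0.231).

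Over all 6 lists, 58 of 65 genes were tested and 0 were called in either direction. Without adjustment 3 were higher and 3 lower at a p under 0.05, where 7.37% and 10.6% of all features were, and the groups lay apart for 4 genes upwards (Acat2, Rnf139, Abcg1 and Hsd3b7) and 3 downwards (Pmvk, Nr1h2 and Cyp39a1), where 3.88% of all features lay apart upwards and 5.39% downwards. With counts this small, no excess or shortfall against those shares is read from them, and none was tested.

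Markers of tissues that are rich in lipid or steroids were read beside these values. The summed level of 5 adipocyte markers was 2.57 to 5.46 in NEKO and 0.69 to 5.17 in control kidneys, with NEKO replicate 2 and control replicate 8 highest and control replicate 4 lowest, and Lep was well above background on no array. Of the adrenal cortex markers, 2 of 6 were tested, Star and Mc2r, with a summed level of -2.53 to -2.18 in NEKO and -2.34 to -1.97 in control kidneys, while Cyp11b2 and Cyp21a1 were well above background on no array and Cyp11a1 on 1. The part of adipocyte RNA in the spread of the 8 genes was not tested.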

How the data were processed

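Whole-kidney RNA of 8 mice was hybridised to Agilent 1-colour mouse arrays. Per the file headers, the deposited intensity values are the processed signals of Feature Extraction 10.7.3.1, and the array annotation names mm9, whereas the normalization used in the study is not given in the sources used here. The deposited log2 value table equals log2 signals relative to the 75th percentile, centred on each probe's median (100% of values within 0.01), and served as an alternative.

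Here, log2 of the processed signal minus each array's 75th percentile over 41174 non-control probes was used. Outlier spots were left out, spots of a probe averaged, and probes kept if well above background on at least 4 of 8 arrays and measured on at least 6. The brightest kept probe stood for its gene. Names came from RefSeq GRCm38.p6, which named 26690 probes of 18217 genes. limma 3.58.1 (R 4.3.3) fitted genotype and sex, and in a second model their interaction, with Benjamini-Hochberg adjustment over 19593 features. Permutation tests used scipy 1.17.1. The procedure was tested on simulated data. The replicates are separate mice. The precision is limited by the number of arrays.

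Summed marker levels are log2 of the summed linear values of a list's tested genes. Pathway genes named are those called, the 3 largest rises and falls in each list, and enzymes next to the 8 genes. Some genes that this rule names stay in the counts but are not reported here. The genes and lists were chosen with earlier results of these data known. Alternatives covered background correction (normexp with offset 50 on median signals, since mean signals are not used here), normalization, probe filter and choice, covariates, variance model, weights, source of values, the methods' t-test and leaving out each mouse.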

Additional observations from a re-analysis of the deposited data

Results flagged for a closer look

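In the 76 groups of 4 mice examined over the 8 genes and the named pathway genes, 1 held a mouse far from the other 3, where chance gives about 1 in 20 groups. Ebp, a sterol isomerase upstream of Dhcr7, was at 5.03 in control replicate 8 against 5.36 to 5.42 in the other controls, a gap of 0.854 of the group's range. None of the 8 genes themselves held such a mouse.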

How the results depend on the processing

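None of the 8 genes was called in either direction under any of the 23 alternatives, the methods' t-test without adjustment included, and the lowest adjusted p was 0.187, for Idi1 with the effect taken as the mean of both sexes from the interaction model. No paired analysis was possible because the labels name no litter or pair, and the replicate numbers only run from 1 to 8 over both groups. Of the pathway lists, 2 genes were called higher as the mean of both sexes (Acat2, adjusted p = 0.0297, and Abcg1, adjusted p = 0.0375), where 1.25% of all features were, and the methods' t-test without adjustment called 4 higher and 3 lower of the 58 tested, where it called 4.81% and 6.48% of all features. With array weights the difference turned for Srebf2 (-0.0060) and Fntb (-0.073), and with the mean of a gene's probes for Fntb (-0.037), and the cause was not tested. Leaving out 1 mouse turned the sign in part of these ranges: Sqle -0.10 to 0.33, Fdps -0.37 to 0.056, Srebf2 -0.080 to 0.18, Sc5d -0.13 to 0.45, Ch25h -0.022 to 0.49, Cyp7b1 -0.95 to 0.29, Rabggtb -0.031 to 0.090 and Fntb -0.12 to 0.13. Hmgcs1, Idi1, Lss, Dhcr7 and Insig1 kept their sign throughout, with leave-out ranges of 0.01 to 0.64, -1.03 to -0.48, 0.10 to 0.40, -0.52 to -0.08 and 0.13 to 0.40.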
